A study of Mus musculus with 2 samples.

Results

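The cells described here were macrophage barcodes that carried several transcripts of resident bone marrow macrophages, among adherent bone marrow stromal cells cultured from mice. A barcode of a droplet library stands for about a cell, and a unique molecular identifier (UMI) for a captured mRNA molecule. Members were chosen by their counts in 3 steps. A barcode needed at least 500 genes, 1000 UMIs and at most 15% mitochondrial UMIs. Per 10000 UMIs it then needed at least 20 of Csf1r, Adgre1, C1qa, C1qb, C1qc, Mrc1, Ctss and Cd68 together, and fewer than 60 of the stromal genes Col1a1, Col1a2 and Sparc. It also needed a UMI of at least 3 of the 7 markers Vcam1, Vsig4, Cd5l, Cd163, Spic, Hpgd and Paqr9. Of 15265 barcodes in all, 13677 met the first step, 5631 of these were gated as macrophages, and 327 were members, 198 in the WT library and 129 in the cKO library. The other 5304 gated barcodes, 2754 WT and 2550 cKO, were the comparison set.

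The WT library came from Slc31a1flox/flox littermates without Cre and the cKO library from Prrx1-Cre+/-; Slc31a1flox/flox mice, both on C57BL/6J, so both groups carried the floxed alleles of the copper importer gene. Marrow of femurs and tibias was plated in alpha-MEM with 10% FBS, unattached cells were discarded at 48 h, and no treatment was given. The age and the number of mice behind each library were not given in the sources used here, and both libraries carry the same batch label. Prrx1-Cre is driven by a limb mesenchyme promoter and is not aimed at macrophages, and the submitters labelled the cells as mesenchymal stem cells.

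Resident marrow macrophages engulf ageing red cells and the nuclei that erythroblasts expel, and they recover the iron from haem. VCAM1 is an adhesion molecule that holds erythroblasts and blood progenitors. SPIC is a transcription factor of the ETS family induced by haem, CD163 is the scavenger receptor for haemoglobin bound to haptoglobin, and VSIG4 is a complement receptor. CD5L is a secreted protein whose gene is a target of LXR nuclear receptors in macrophages, and HPGD breaks down prostaglandins. PAQR9 is a membrane protein of the progestin and adipoQ receptor family.

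The sequences before the transcription starts of 4 of the markers are shown because 2 factors of such macrophages have known binding letters. They are 250 bases each, from RefSeq on GRCm38.p6, written 5′ to 3′ on the strand of the gene. The Spic window precedes a RefSeq start that lies inside the GENCODE span of the gene, chr10:88674772-88685015, and not the outer end of that span. Capitals mark GAGGAA, the core of the PU box bound by PU.1 and SPIC, or TGCTGA, a short site of MAF proteins, on either strand.
Spic, chr10:88683024-88683273, minus strand: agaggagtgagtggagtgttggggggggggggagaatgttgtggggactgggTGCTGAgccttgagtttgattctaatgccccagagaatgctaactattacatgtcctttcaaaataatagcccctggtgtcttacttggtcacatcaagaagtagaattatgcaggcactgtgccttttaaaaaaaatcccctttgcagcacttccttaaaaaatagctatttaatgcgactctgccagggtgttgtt
Cd5l, chr3:87357631-87357880, plus strand: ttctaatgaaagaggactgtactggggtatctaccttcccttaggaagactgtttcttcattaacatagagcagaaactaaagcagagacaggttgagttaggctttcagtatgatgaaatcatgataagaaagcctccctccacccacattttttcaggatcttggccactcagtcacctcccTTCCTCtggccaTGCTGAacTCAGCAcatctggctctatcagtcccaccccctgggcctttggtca
Vsig4, chrX:96293439-96293688, minus strand: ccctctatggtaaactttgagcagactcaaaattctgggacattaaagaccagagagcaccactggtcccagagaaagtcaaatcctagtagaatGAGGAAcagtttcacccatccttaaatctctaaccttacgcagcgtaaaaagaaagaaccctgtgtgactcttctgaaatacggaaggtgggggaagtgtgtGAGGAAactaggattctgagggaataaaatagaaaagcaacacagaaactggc
Cd163, chr6:124304401-124304650, plus strand: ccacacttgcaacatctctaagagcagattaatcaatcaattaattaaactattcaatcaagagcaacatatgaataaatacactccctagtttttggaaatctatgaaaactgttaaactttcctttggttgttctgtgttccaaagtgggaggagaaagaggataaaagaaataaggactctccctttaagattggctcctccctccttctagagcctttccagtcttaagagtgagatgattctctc
Of the 7 marker genes, 5 were found in the RefSeq table: these 4 and Hpgd. GAGGAA lay in 3 of those 5 windows (Cd5l, Hpgd and Vsig4) and in 23.3% of all 32851 promoters of this length, and TGCTGA lay in 2 of the 5 (Cd5l and Spic) and in 16.1% of all. The antioxidant response core TGACNNNGC, which shares letters with some longer MAF sites, was in none of the 5 and in 10.2% of all. A match of these letters is a description and not a bound site.

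After the first step the WT library held 8171 of 9125 barcodes and the cKO library 5506 of 6140. Members held 2147679 UMIs in WT and 1143285 in cKO, with medians of 9072 and 6331 UMIs per barcode against 9909 and 8223 in the other gated barcodes. With 1 library per genotype there is no test between genotypes, and every 95% interval below covers counting error only and not the spread between mice or cultures. Of all barcode sequences, 11 occurred in both libraries. In all, 4 WT and 2 cKO members carried many transcripts of another cell type. Of these, 1 in each library had UMIs of 9 (WT) and 10 (cKO) of 10 endothelial genes, 2 WT and 1 cKO were rich in the neutrophil genes S100a8 and S100a9, and 1 WT barcode was rich in the osteoclast genes Acp5, Ctsk and Mmp9. Results that rest on these 6 barcodes are given with and without them.

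The markers that brought barcodes into the set were mostly Vcam1, Hpgd, Cd5l and Spic. A UMI of Vcam1 was present in 82.3% of WT and 87.6% of cKO members, of Hpgd in 82.3% and 80.6%, of Cd5l in 75.3% and 81.4%, and of Spic in 65.7% and 60.5%. The other markers were rarer: Cd163 was found in 19.2% and 18.6% of members, Vsig4 in 11.6% and 20.2%, and Paqr9 in 14.1% and 20.9%. These shares describe the choice, which used the same counts. The most frequent set in WT was Vcam1 with Cd5l and Hpgd, in 37 members. At 1 fixed depth of 5000 UMIs, which left out 676 WT and 885 cKO gated barcodes, Vcam1 was seen in 58.6% of WT and 61.5% of cKO members and Cd163 in 11.1% and 14.1%.

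Barcodes rich in S100a8 and S100a9 (at least 100 UMIs per 10000) that failed the macrophage gate served as a background, since neutrophils should lack most of these transcripts. Their median depth was 7069 UMIs in WT and 9189 in cKO. There, 31.0% of 313 WT and 29.7% of 353 cKO barcodes held a Vcam1 UMI, above the 13.8% and 9.80% of the other gated macrophages, so a Vcam1 UMI in those is not read as expression. The other 6 markers were at 0 to 5.11% in the neutrophil barcodes, and Cd5l, at 29.8% of WT and 20.9% of cKO other gated barcodes, and Hpgd, at 24.9% and 22%, stood above that background. At least 3 markers were found in 1 of 313 neutrophil barcodes in WT and 0 of 353 in cKO, where a count of 0 allows a share of up to 0.850% (3 counts of the total). Barcodes at or above the limit of the stromal genes, with or without macrophage transcripts, gave higher shares: at least 3 markers were found in 71 of 4413 in WT (1.61%) and 38 of 1750 in cKO (2.17%), at median depths of 10525 and 55954 UMIs. Cd5l was found there in 11.9% and 7.2%, Hpgd in 9.61% and 9.37%, and Vcam1 in 36.7% and 50.6%.

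**Figure D1:**
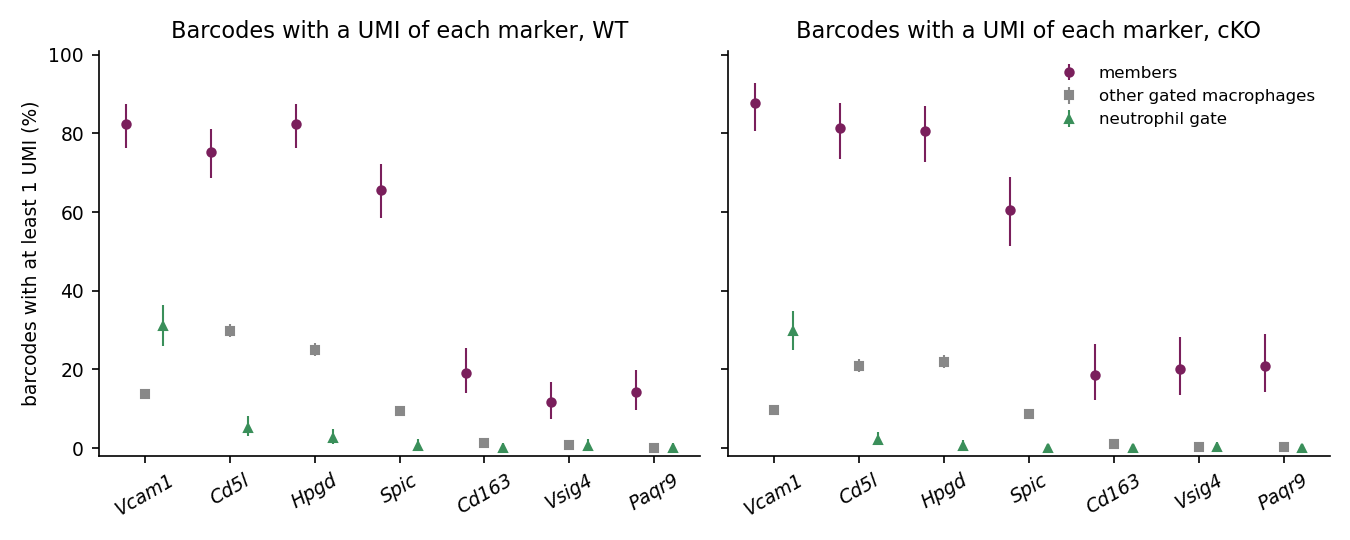
Percent of barcodes with at least 1 UMI of each of the 7 markers, in members (circles), other gated macrophages (squares) and neutrophil barcodes (triangles), for the WT library on the left and the cKO library on the right, with exact 95% intervals. Vcam1, Cd5l, Hpgd and Spic are found in 60.5% to 87.6% of members and Cd163, Vsig4 and Paqr9 in 11.6% to 20.9%, while Vcam1 is also found in about 30% of neutrophil barcodes (31.0% WT, 29.7% cKO).

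Each marker was next described in barcodes chosen by the other 6 alone, so that its own count played no part in that step. Vcam1 stood at 454 CPM, the standard scaling of UMIs to the total of a set, in the 97 WT barcodes chosen this way against 33.8 CPM in the remaining gated barcodes, a ratio of 13.4 (interval 12.0 to 14.98), and at 780 against 24.4 CPM in cKO, a ratio of 31.9 (28.1 to 36.2). Cd163 was 15.4-fold higher in WT (10.1 to 23.5) and 29.99-fold in cKO (18.5 to 49.1), and Vsig4 was 35.2-fold (22.8 to 55.4) and 79.8-fold higher (46.0 to 146). Cd5l, with the smallest ratio in WT, was 2.80-fold higher there (2.51 to 3.12) and 6.18-fold in cKO (5.43 to 7.01). Spic, with the smallest ratio in cKO, was 4.84-fold higher in WT (3.85 to 6.03) and 5.95-fold in cKO (4.39 to 7.94). All 7 markers were higher in both libraries in the barcodes chosen by the other 6. The rule with its 7 markers was set with earlier results of these data known, so these ratios describe the choice and do not support the label.

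The members were not uniform. When the gated barcodes of both libraries were clustered without the 18 genes of the rule, 14 clusters resulted, and 86 of the 97 barcodes of cluster 8 were members (88.7%). Of the barcodes with 5 to 7 markers, 22 of 27 in WT (81.5%, interval 61.9 to 93.7) and 20 of 24 in cKO (83.3%, 62.6 to 95.3) lay in it. Of those with 4 markers, 14 of 36 (38.9%) and 14 of 28 (50%) did, and of those with 3 markers 9 of 135 (6.67%) and 7 of 77 (9.09%). Just outside the threshold, 5 of 511 WT and 2 of 339 cKO barcodes with 2 markers lay in cluster 8, and 1 of 2243 and 3 of 2211 with 0 or 1. Depth ran the other way: barcodes with 5 to 7 markers had a median of 6846 UMIs in WT and 4184 in cKO, against 10154 and 10007 for those with 3 markers.

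**Figure D2:**
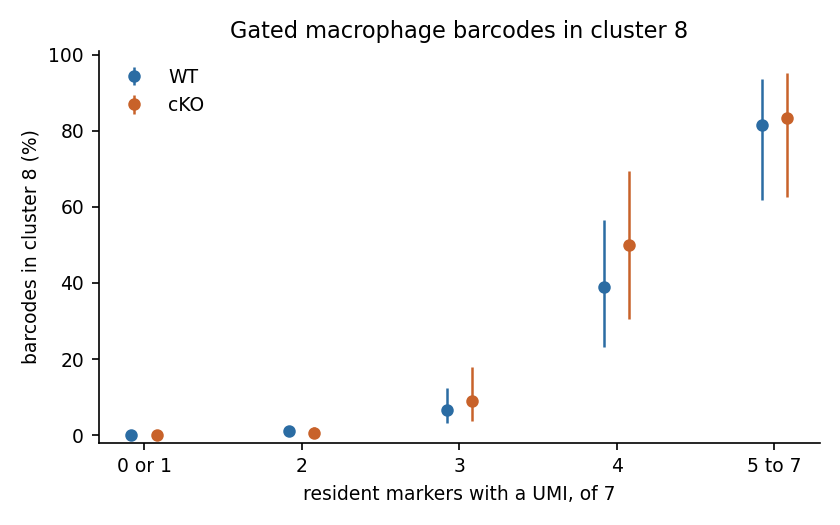
Percent of gated macrophage barcodes that lay in cluster 8 (vertical axis) by the number of the 7 markers with a UMI (horizontal axis), for the WT and cKO library, with exact 95% intervals. The share is 0.978% (WT) and 0.590% (cKO) at 2 markers and 81.5% and 83.3% at 5 to 7 markers.

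Of the 327 members, 45 WT and 41 cKO barcodes were in cluster 8, and 241 members lay in other clusters. The largest group of those, 72 WT and 21 cKO, was in a cluster led by Abcg3, Ddx60 and Slc40a1, and the next, 26 and 21, in a cluster led by the mitotic genes Cenpf, Ube2c and Nusap1. Members in cluster 8 held a mean of 4.49 (WT) and 4.61 (cKO) of the 7 markers and members outside it 3.22 and 3.27, so the marker values that follow describe the choice and do not support the label. All 45 WT and all 41 cKO members in the cluster held a Vcam1 UMI. Spic was found in 28 of 45 and 25 of 41 members in cluster 8 and Cd163 in 22 and 14. Cd163 stood at 122 CPM in WT and 192 CPM in cKO members in the cluster, against 9.39 and 10.6 CPM in members outside it and 1.25 and 1.06 CPM in the other gated barcodes. No cell type name was given to cluster 8, because its leading genes by fold, Igha, Jchain and Igkc, came with a WT barcode with 36.9% immunoglobulin UMIs that was no member. No member reached 5%. Of the list of B and plasma cell genes, 1 was measured between the members, Cd79b, a chain of the B cell receptor complex. It was higher in the cluster's members, at 50.4 CPM in WT (17 UMIs) and 75.7 CPM in cKO (15 UMIs). Its level was 14.4 and 12.7 CPM in members outside and 13.8 and 11.3 CPM in the other gated barcodes. The median immunoglobulin share was 0.00897% (WT) and 0.0163% (cKO) in the cluster's members and 0.00331% and 0.00693% in members outside. Of 12 genes of B and plasma cells, 4 had no UMI in WT members and 5 had none in cKO members, and the list summed to 178 and 227 CPM in the cluster's members, 93.4 and 97.3 CPM in members outside and 180 and 98.3 CPM in the other gated barcodes. The part of these transcripts in the cluster was not tested. At resolutions of 1 and 2 the matching clusters shared 96 and 92 barcodes with cluster 8. Of the 534 WT and 243 cKO barcodes with the highest doublet scores, 7 WT and 5 cKO were members and 0 had 5 to 7 markers.

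Outside cluster 8, members were close to other macrophages in the genes the rule did not use. Of 3962 genes with at least 50 CPM in a compared set in both libraries, 21 (0.53%) were at least 1.5-fold higher in those members than in the other gated barcodes in both libraries, and 5 (0.126%) were that much lower. Between members in the cluster and members outside it, 215 of 4155 genes (5.17%) were higher and 152 (3.66%) lower. The clusters were drawn from these same counts, so these numbers describe the split and do not test it.

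Genes named from here on for cluster 8 outside the 7 markers were chosen after their values were seen, unless they belong to a list or also lead the contrast of all members. Slc1a3 (GRCm38 chr15:8634124-8710764, minus strand), a glutamate transporter gene, stood at 264 CPM (212 to 325) in WT and 409 CPM (325 to 508) in cKO members in the cluster, against 6.63 and 13.7 CPM in members outside it and 0.888 and 0.449 CPM in other gated barcodes. Ccr3 (chr9:124021972-124031689, plus strand), a chemokine receptor gene best known in eosinophils, stood at 326 and 545 CPM in the cluster, 13.3 and 30.7 CPM outside it and 4.11 and 6.01 CPM in the other gated barcodes. In both libraries the order was the same, but both genes were left in the counts that were clustered, so this order describes the split. Itgad, an integrin subunit, was found at 56.3 and 90.9 CPM in the cluster, Fcna, a ficolin that recognises microbial sugars, at 68.2 and 85.8 CPM, and Mgll, a monoacylglycerol lipase, at 80.1 and 172 CPM. Outside the cluster these 3 genes were at 7.18 CPM or less in members. Timd4, a receptor for phosphatidylserine on dying cells, had 29.7 and 40.4 CPM in cluster 8 and at most 2.12 CPM elsewhere in the macrophage gate.

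Iron and haem genes formed part of this pattern. Of 15 measured genes of haem and iron recycling, 5 were at least 1.5-fold higher in cluster 8 members than in other members in both libraries and 0 were lower, against 5.17% and 3.66% of all genes. Slc40a1 (chr1:45908068-45926523, minus strand), the gene of the iron exporter ferroportin, stood at 881 CPM in WT and 1181 CPM in cKO members in the cluster, 480 and 450 CPM in members outside it and 231 and 209 CPM in the other gated barcodes. Hmox1, which breaks haem down, was 2.03-fold (WT) and 1.66-fold (cKO) higher in the cluster than in members outside, Tfrc, the transferrin receptor, 2.96-fold and 3.93-fold, and Trf, transferrin itself, 2.58-fold and 3.01-fold. Ncoa4, the receptor that directs ferritin to degradation, was the other gene counted. The list summed to 33710 and 34070 CPM in the cluster and to 34310 and 39430 CPM in the other gated barcodes.

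The list of erythroblast island and marrow resident macrophages gave 5 of 12 measured genes higher in the cluster and 0 lower, where 5.17% and 3.66% of all genes were: Axl, Mertk, Sdc3, Ccr3 and Cd4. All gene lists were drawn up with earlier results of these data known. This count, which includes Ccr3, describes the cluster and does not support a name for it. Axl (chr7:25757273-25788705, minus strand), whose product binds dying cells through the bridging protein GAS6, stood at 525 CPM in WT and 641 CPM in cKO in the cluster, 180 and 160 CPM outside and 119 and 94.0 CPM in the other gated barcodes. Maf, a transcription factor of these macrophages, was at 1755 and 1585 CPM inside and 1845 and 1572 CPM outside, ratios of 0.951 and 1.01. Siglec1, the sialoadhesin also known as CD169, was low in all sets, at 23.7 and 10.1 CPM in the cluster. Erythroid cells themselves were nearly absent: of 15 erythroid genes, 14 had no UMI in WT members and 13 had none in cKO members, and the 4 haemoglobin genes gave 12 UMIs over all 9125 WT barcodes and 13 over all 6140 cKO barcodes.

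LXR receptors sense oxidised cholesterol and switch on genes that export and modify lipids. Of 15 measured genes of this list, 7 were higher in cluster 8 members in both libraries and 0 lower (all genes 5.17% and 3.66%), namely Nr1h3, Abca1, Abcg1, Mylip, Lpcat3, Srebf1 and Lpl. Nr1h3, which encodes LXR alpha, stood at 157 CPM in WT and 192 CPM in cKO in the cluster, 46.4 and 64.5 CPM outside and 24.2 and 38.1 CPM in the other gated barcodes. Lpl, lipoprotein lipase, stood at 2173 and 2166 CPM in the cluster and 645 and 861 CPM outside. The list's median log2 ratio, cluster over outside, was 0.42 in WT and 0.63 in cKO, where the median over all 4155 genes was 0.00 in both. Among macrophage transcription factors 4 of 20 were higher (all genes 5.17%) and 0 lower (3.66%), including Pparg, at 294 and 257 CPM against 90.03 and 83.6 CPM outside.

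Genes of the cell cycle were lower in cluster 8. Of 10 measured genes of G2 and M, 7 were at least 1.5-fold lower in both libraries and 0 higher, against 3.66% and 5.17% of all genes. The same clustering set mitotic barcodes apart, in the cluster led by Cenpf, Ube2c and Nusap1. Its 26 WT and 21 cKO members count among the members outside cluster 8, so these lower levels describe the split. Top2a, a topoisomerase of dividing cells, stood at 62.3 CPM in WT and 45.4 CPM in cKO in the cluster, 320 and 219 CPM in members outside and 330 and 284 CPM in other gated barcodes. Mki67 followed with 47.4 and 55.5 CPM against 212 and 141 CPM outside. Of 7 measured genes of the list named for Cx3cr1, F13a1 and Slc40a1, 3 were lower and 1 higher. Among that list's genes, Pf4 was at 768 and 646 CPM against 1944 and 1516 CPM, and F13a1 at 350 and 252 CPM against 616 and 425 CPM. Gpnmb, a glycoprotein of lipid-laden macrophages, was at 528 and 409 CPM against 1217 and 1299 CPM, but of the 14 measured genes of its list of lipid-associated macrophages 2 were lower and 1 higher, and the list summed to 31070 and 30590 CPM in the cluster against 27680 and 25280 CPM outside. Cd74, the invariant chain of MHC class II, was at 5.93 and 15.1 CPM in the cluster, 64.1 and 62.4 CPM outside and 103 and 97.2 CPM in the other gated barcodes, while the whole list of MHC class II and dendritic genes summed to 240.2 (WT) and 292.8 CPM (cKO) in the cluster and 295.0 and 240.2 CPM outside.

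Stromal transcripts were present in all sets. The mesenchymal list of 12 genes outside the rule summed to 1293 CPM in WT and 1408 CPM in cKO members in the cluster, 1061 and 963 CPM outside and 1191 and 1230 CPM in the other gated barcodes, and 2 of its 5 measured genes, Col3a1 and Bgn, were past 1.5-fold higher in the cluster (5.17% of all genes were). Barcodes with 5 to 7 markers had a median of 27.4 (WT) and 21.8 (cKO) UMIs of Col1a1, Col1a2 and Sparc per 10000, against 14.5 and 11.9 in those with 3 markers. Of the mesenchymal list 2 genes had no UMI in WT members and 1 had none in cKO members. The part of these transcripts in the pattern was not tested.

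**Figure D3:**
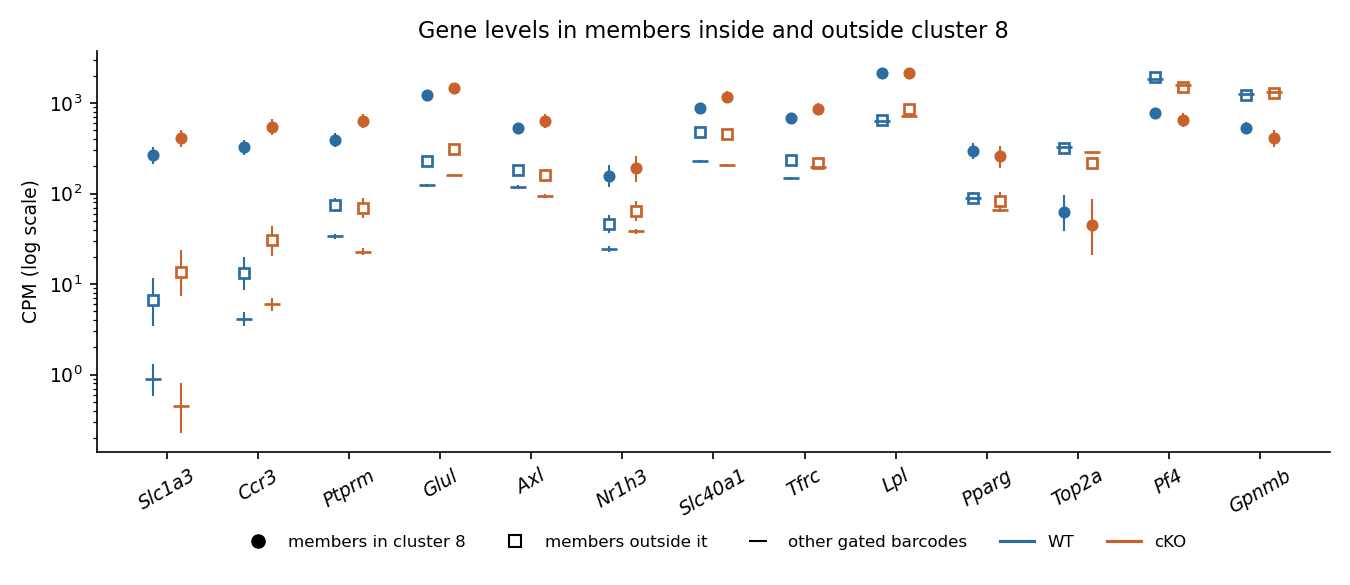
Levels of 13 genes in CPM on a log axis, in members in cluster 8 (filled circles), members outside it (open squares) and other gated barcodes (dashes), WT and cKO side by side, with exact 95% Poisson intervals. Within each gene, Slc1a3 to Pparg are highest in cluster 8 members of both libraries, and Top2a, Pf4 and Gpnmb are lowest there.

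As a set, the 327 members stood apart from the other gated barcodes in few genes. Of 3984 genes, 43 (1.08%) were at least 1.5-fold higher in members in both libraries and 9 (0.226%) that much lower. Among genes with at least 50 CPM in the members of both libraries Ccr3 led, at 62.4 CPM in WT and 120 CPM in cKO members, 15.2-fold (11.8 to 19.5) and 19.95-fold (15.7 to 25.4) above the other gated barcodes. Slc1a3, at 47.0 CPM in WT members and so under that minimum, was 52.9-fold (34.3 to 84.2) and 183-fold (97.7 to 379) higher. Ptprm, a receptor phosphatase, was 3.72-fold and 7.34-fold higher, Glul, glutamine synthetase, 3.11-fold and 3.23-fold, and Epb41l3, a membrane skeleton protein, 2.86-fold and 4.43-fold. Cd4 followed at 2.63-fold and 2.94-fold and Slc40a1 at 2.35-fold (2.21 to 2.50) and 2.76-fold (2.54 to 2.997). Cd38, an NAD-consuming ectoenzyme, was 2.01-fold and 3.20-fold higher, and Hebp1, a haem-binding protein, 1.93-fold and 2.19-fold.

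Of the UMIs of Emcn, an endothelial sialomucin, 90.4% in WT and 96.8% in cKO members lay in 1 barcode each. Emcn was 3.52-fold (WT) and 11.1-fold (cKO) higher in members, but 1.14-fold and 0.563-fold without barcodes of mixed type in either set.

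Among genes lower in members, S100a4, a calcium-binding protein of monocytes and motile cells, stood at 122 CPM in WT and 216 CPM in cKO against 287 and 560 CPM in the other gated barcodes, ratios of 0.427 and 0.386. Ccr2, the receptor that brings monocytes out of marrow, was 0.384-fold and 0.597-fold, and Cd74 0.533-fold and 0.558-fold. The histone gene Hist1h1b was 0.557-fold and 0.446-fold. Of the 5 monocyte genes measured, 2 were lower (Ccr2 and S100a4) and 1 higher (Chil3, at 2.06-fold and 1.71-fold, with 50.5% of its WT and 54.9% of its cKO member UMIs in 1 barcode each), where 0.226% of all genes were lower and 1.08% higher, and of the 15 measured genes of lipid-associated macrophages 0 passed in either direction, with median log2 ratios of -0.18 in WT and -0.21 in cKO.

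The overlap of members with 2 other sets of gated barcodes was also counted. Barcodes with a UMI of each of Gpnmb, Cd36 and Mmp12 shared 10 barcodes with the WT members, 5.05% of members and 4.69% of that set, and 11 with the cKO members, 8.53% and 3.503%. This set was 7.22% of all gated WT barcodes and 11.7% of cKO ones. Barcodes with a UMI of each of Cx3cr1, F13a1 and Slc40a1 shared 119 in WT, 60.1% of members and 8.71% of that set, and 57 in cKO, 44.2% and 6.49%. The latter sets were 46.3% of all gated WT barcodes and 32.8% of cKO ones.

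The share of gated macrophages that were members was lower in the cKO library. It was 6.71% in WT (198 of 2952, exact Clopper-Pearson interval 5.83 to 7.67) and 4.82% in cKO (129 of 2679, 4.04 to 5.70), an odds ratio of 0.704 (0.556 to 0.889). Most of the difference lay in barcodes with 3 markers, at 4.57% against 2.87%. Members outside cluster 8 made up 5.183% of WT and 3.285% of cKO gated barcodes, an odds ratio of 0.621 (0.470 to 0.818). Members in cluster 8 made up 1.524% and 1.530%, an odds ratio of 1.004 (0.639 to 1.574). Barcodes with 4 to 7 markers, which hold most of the cluster 8 members, made up 2.13% of WT (1.64 to 2.72) and 1.94% of cKO (1.45 to 2.54), an odds ratio of 0.908 (0.614 to 1.34). Those with 5 to 7 markers made up 0.915% and 0.896%, an odds ratio of 0.979 (0.539 to 1.77). These intervals are wide, and a difference in either direction was not detectable at this number of barcodes.

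The rule finds 3 markers more easily in a deep barcode, so the share was also taken at 1 fixed depth. Barcodes with fewer UMIs than that depth were left out. With the remaining gated barcodes thinned to 5000 UMIs it was 3.34% (76 of 2276) in WT and 2.23% (40 of 1794) in cKO, an odds ratio of 0.660 (0.436 to 0.986). Of the members by full counts, 162 of 198 WT and 78 of 129 cKO barcodes had that depth. Among other gated barcodes 2114 of 2754 and 1716 of 2550 had it, and among those with 5 to 7 markers 21 of 27 and 9 of 24. The part of this unequal loss in the odds ratio was not tested. Thinned to 3000 UMIs, which left out 310 WT and 498 cKO barcodes, the share was 2.65% and 1.88%, an odds ratio of 0.704 (0.465 to 1.05). Thinned to 10000, which left out 1497 and 1592, it was 3.57% and 2.12%, with an odds ratio of 0.583 (0.338 to 0.977).

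The denominator decides the comparison. Gated macrophages made up 36.1% of the WT and 48.7% of the cKO barcodes that passed the first step, and members made up 2.42% (2.10 to 2.78) and 2.34% (1.96 to 2.78) of those, an odds ratio of 0.966 (0.766 to 1.22). With 1 library per genotype, a difference between genotypes and a difference between cultures or captures cannot be told apart.

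**Figure D4:**
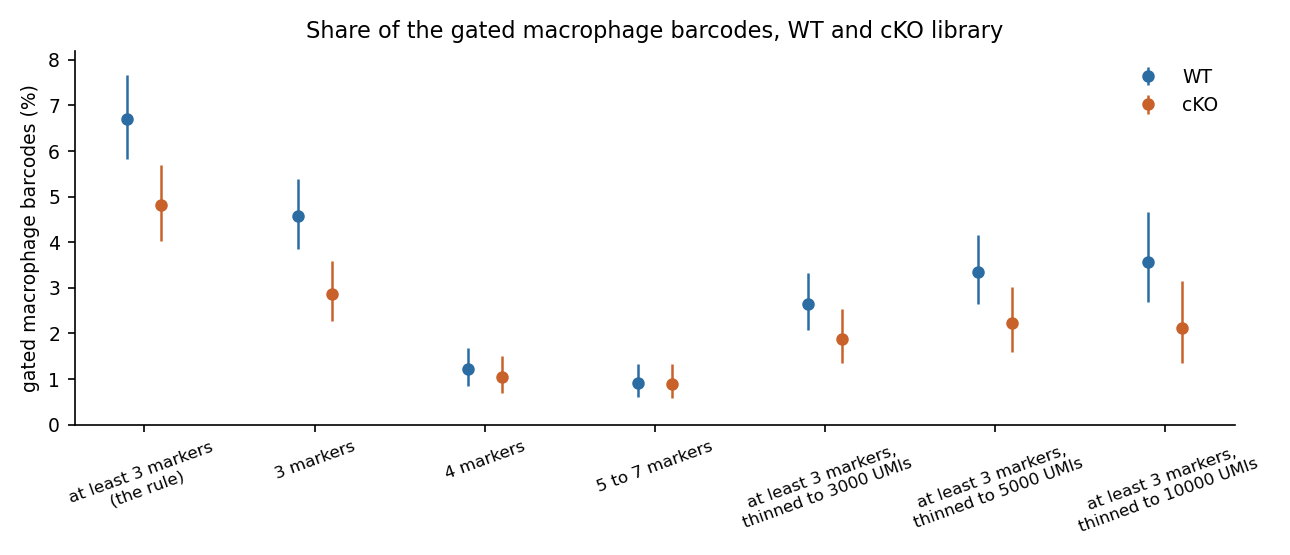
Percent of the gated macrophage barcodes of the WT and cKO library with at least 3, exactly 3, 4, or 5 to 7 markers, and with at least 3 markers after thinning to 3000, 5000 or 10000 UMIs, with exact 95% intervals. The libraries differ at 3 markers (4.57% and 2.87%) and lie close together at 5 to 7 markers (0.915% and 0.896%).

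Within members, most genes had like levels in both libraries. The targeted gene Slc31a1 (chr4:62360727-62391769, plus strand) stood at 70.8 CPM in WT and 60.4 CPM in cKO members, a ratio of 0.853 (0.632 to 1.14), and at 69.2 and 73.2 CPM in the other gated barcodes. The files give 3′ tags that need not lie in the floxed part, so this level does not check the deletion. Of 4270 genes, 82 (1.92%) were at least 1.5-fold higher in cKO and 76 (1.78%) that much lower, against 27 (0.653%) and 25 (0.604%) of 4137 genes in the other gated barcodes, which hold far more UMIs. Of 7 measured genes of copper transport and metallothioneins, 0 passed 1.5-fold in either direction. Of the 82 genes, 68 were also above 1 in the other gated barcodes, with 15 past 1.5-fold higher there and 4 past it lower. Of the 76, 64 were also below 1 there, with 12 past 1.5-fold lower and 3 past it higher. Over all 4270 genes the median log2 ratio in the other gated barcodes was -0.01.

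Id3, an inhibitor of helix-loop-helix transcription factors, stood at 101.97 CPM in WT and 212 CPM in cKO members, a ratio of 2.08 (1.72 to 2.50), and was 2.05-fold higher in the other gated barcodes too. Id2 was 1.59-fold higher (1.46 to 1.74) and 1.51-fold in the others. Smad6 and Smad7, which encode the inhibitory SMADs of the TGF-beta and BMP pathways, were 2.17-fold (1.51 to 3.12) and 1.96-fold (1.39 to 2.75) higher, and 2.05-fold and 1.62-fold in the others.

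Of 14 measured antioxidant genes, 4 were past 1.5-fold higher in cKO members and 0 lower, against 1.92% and 1.78% of all genes: Gclm, a subunit of the enzyme that starts glutathione synthesis, at 1.68-fold (1.44 to 1.95), Txnrd1, thioredoxin reductase, at 1.56-fold (1.35 to 1.80), Srxn1, sulfiredoxin, at 1.51-fold (1.08 to 2.12), and Hmox1 at 1.59-fold (1.47 to 1.73). In the other gated barcodes they were at 1.74-fold, 1.195-fold, 1.58-fold and 1.42-fold. The list's median log2 ratio was 0.28 in members and 0.32 in the others, against -0.01 over all genes in both. Hmox1 also counts among the 15 haem and iron genes, of which it was the 1 past 1.5-fold higher, with 0 past it lower.

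Of 10 measured immediate early genes, which respond within minutes to stimuli and to handling, 3 were past 1.5-fold higher in cKO members, against 1.92% of all genes: Dusp1 at 2.66-fold (1.77 to 4.03), Fos at 2.00-fold (1.40 to 2.86) and Zfp36 at 1.91-fold (1.55 to 2.36). In the other gated barcodes these were at 1.70-fold, 1.38-fold and 1.34-fold. Jun was at 0.717-fold in members. Of 11 chemokine and cytokine genes, Tnf, at 1.90-fold (1.39 to 2.61), and Ccl9, at 1.86-fold (1.52 to 2.28), were higher and Ccl3, at 0.608-fold (0.457 to 0.802), was lower, where 1.92% of all genes were higher and 1.78% lower. The urokinase gene Plau was 2.05-fold higher (1.45 to 2.91) and Rgs1, a regulator of G protein signals, 1.99-fold (1.47 to 2.69).

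Ccr3 was 1.92-fold higher in cKO members (1.502 to 2.46). The members in cluster 8, where its level was highest, were 22.7% of WT and 31.8% of cKO members. The ratio was 1.67 (1.27 to 2.20) among them and 2.31 (1.301 to 4.15) among members outside, where 14 WT and 17 cKO barcodes held a Ccr3 UMI. The part of this unequal mix in the other ratios was not tested. In cluster 8 Slc40a1 was 1.34-fold higher in cKO (1.13 to 1.60) and Axl 1.22-fold (0.965 to 1.54). Vcam1 was 1.26-fold higher there (1.10 to 1.44), but the rule used Vcam1 and all members in the cluster held a UMI of it. Their median depth was 6389 UMIs in WT and 4340 in cKO, so the Vcam1 ratio describes the choice.

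On the lower side, Fut8, a fucosyltransferase, stood at 69.4 CPM in WT and 35.9 CPM in cKO members, a ratio of 0.517 (0.357 to 0.734), Pde7b, a phosphodiesterase, at 162 and 86.6 CPM, a ratio of 0.534 (0.423 to 0.670), and P2ry12, a purine receptor, at 51.2 and 28.0 CPM, a ratio of 0.546 (0.357 to 0.815). In the other gated barcodes these were at 0.844-fold, 0.633-fold and 0.758-fold. Hist1h1b was 0.434-fold in members (0.300 to 0.615) and 0.542-fold in the others. Fcgr2b, the inhibitory receptor for immunoglobulin G, was 0.630-fold (0.503 to 0.784). Tnfaip8l2, Psmd9, Ppil2 and Trim14 completed the lowest ratios, at 0.520-fold to 0.555-fold.

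The extreme ratios came from the barcodes of mixed type. Esm1, an endothelial proteoglycan, was 5.22-fold higher in cKO members (3.32 to 8.43), but 94.7% of its 75 cKO UMIs lay in 1 barcode, and without the 6 barcodes the ratio was 0.741. Mmp9, Ctsk and Acp5 were at 0.102-fold, 0.160-fold and 0.270-fold, with 97.3%, 85.6% and 78.2% of their WT UMIs in 1 barcode, and at 3.71-fold, 1.10-fold and 1.23-fold without the 6. The neutrophil gene Camp went from 0.320-fold to 1.39-fold.

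**Figure D5:**
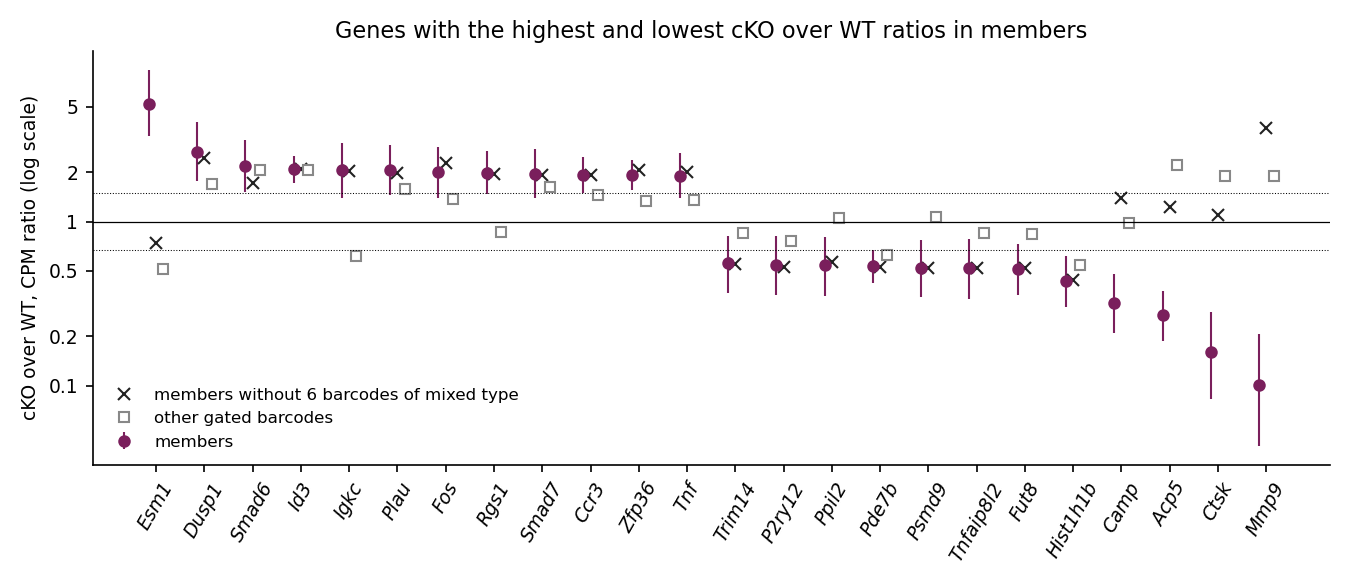
Ratio of CPM, cKO over WT, on a log axis for the 12 genes with the highest and the 12 with the lowest ratios in members (filled circles with exact 95% intervals), without 6 barcodes of mixed type (crosses) and in the other gated barcodes (open squares); dotted lines mark 1.5-fold. Id3 lies at 2.08 in members and 2.05 in the others, while Esm1, Mmp9, Ctsk, Acp5 and Camp cross 1 without the 6 barcodes.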

How the data were processed

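The 2 libraries were made with a 10x Genomics 3′ kit. The authors deposited matrices of raw UMI counts. The file headers name Cell Ranger 7.1.0, and the submitters' processing notes name mm10 and Seurat. No source used here says how intronic reads were treated. No cell annotation of the authors was used.

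The members and the 28 gene lists were chosen with earlier results of these data known. Counts were summed per library over each set of barcodes and scaled to CPM. Levels have exact Poisson intervals, shares exact Clopper-Pearson intervals (a printed count of 0 has the limit of 3 counts) and ratios exact conditional binomial intervals, all at 95%. A gene was counted at a ratio of 1.5 or more, or its inverse or less, with at least 50 CPM in either set. Named genes were the 12 highest and 12 lowest cKO over WT ratios, the 15 highest and 10 lowest member ratios, the markers, Slc31a1, Prrx1 and up to 4 genes per list. Others were chosen after their values were seen. Of the genes listed, 3 were not among the 32285 in the files.

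Clusters were made with scanpy 1.11.5 and leidenalg 0.10.2 (2000 variable genes, 30 components, 15 neighbours, resolution 0.5). Doublets were kept: Scrublet's own threshold marked 2 WT and 1 cKO barcodes and had not worked, and leaving out the highest scores is an alternative. Alternatives changed the gates, the marker number, depth and scaling. Coordinates are 1-based, from GENCODE M21 (GRCm38) for genes, where 32235 gene identifiers of the files were found, and from RefSeq on GRCm38.p6 for promoters. On simulated counts for cKO over WT in members (4028 genes), intervals held the simulated ratio in 95.3% of the 3828 genes left unchanged, in 96% of genes changed 0.5-fold, 94% of those changed 1.5-fold, 100% of those changed 2-fold and 92% of those changed 3-fold. The simulated counts were Poisson sums per gene, the model behind these intervals, without any spread between barcodes. They check the calculation only, not whether the intervals hold for counts carried by few barcodes.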

Additional observations from a re-analysis of the deposited data

Results flagged for a closer look

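In 7 genes, members and the other gated barcodes differed between the libraries in opposite directions, and these differences were not tested, since there is 1 library per genotype. Esm1 was 5.22-fold in members, cKO over WT, and 0.512-fold in the other gated barcodes. Emcn was 1.52-fold and 0.481-fold, and in members without the 6 barcodes of mixed type it was 0.506-fold (0.0906 to 1.91). Mmp9 was 0.102-fold and 1.88-fold, Ctsk 0.16-fold and 1.88-fold, and Acp5 0.27-fold and 2.20-fold. These 5 are genes of endothelial cells or osteoclasts. Of the member UMIs, 1 barcode held 94.7% of Esm1 in cKO, 96.8% of Emcn in cKO, and 97.3% of Mmp9, 85.6% of Ctsk and 78.2% of Acp5 in WT.

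Igkc, the immunoglobulin kappa constant gene, was 2.05-fold higher in cKO members (interval 1.39 to 3.03) and 0.615-fold in the other gated barcodes, where 1 WT barcode held 36.9% immunoglobulin UMIs. Rgs1 was 1.99-fold in members (1.47 to 2.69) and 0.864-fold in the others, with 21.5% of its cKO member UMIs in 1 barcode.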

How the results depend on the processing

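With 1 library per genotype no result has a replicate check, and the barcode number limits the precision. No paired analysis was possible because each group holds 1 library. The odds ratio of the member share, cKO over WT, was below 1 under all 11 alternatives. It was 0.908 with at least 4 markers (interval across 1), and its interval also reached 1 with a stromal gate under 20 (0.802) and after thinning to 3000 UMIs (0.704).

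Counts of genes past 1.5-fold moved with the choice of barcodes and their weight. In each group of 4 values below, the first pair counts genes higher and lower in cKO members and the second pair genes higher and lower in members than in the other gated barcodes. Against 82, 76, 43 and 9 as reported, these were 33, 32, 4 and 5 with at least 2 markers and 345, 460, 197 and 89 with at least 4 markers. With markers counted after thinning to 5000 UMIs they were 337, 302, 139 and 75, and with at least 10 CPM 512, 652, 127 and 33. With every barcode at equal weight, they were 187, 142, 61 and 19. A stromal gate under 20 gave 132 genes lower in cKO and 24 higher and 4 lower in members, and a range of 5000 to 30000 UMIs gave 16 lower in members. The cause of these shifts was not tested.

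Directions of single genes changed mostly for those carried by a few barcodes. Esm1, cKO over WT, was 0.950 with at least 2 markers, 0.804 with a macrophage gate at 40, 0.682 with a stromal gate under 20 and 0.741 without barcodes of mixed type, an alternative chosen after seeing the data. Mmp9 was 5.45 with at least 4 markers, 7.34 at 5000 to 30000 UMIs, 10.7 after thinning and 3.71 without barcodes of mixed type. Acp5 was 1.38 with at least 2 markers, 1.32 with at least 4, 1.03 at 5000 to 30000 UMIs, 1.03 after thinning and 1.23 without barcodes of mixed type. Ctsk was 1.00 with at least 2 markers and 1.10 without barcodes of mixed type, and Camp was 1.17 without the highest Scrublet scores and 1.39 without barcodes of mixed type. Igkc was 0.262 with at least 2 markers and Fos 0.978 with at least 4.

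Of members over other gated barcodes, Emcn was 0.606 (WT) and 0.306 (cKO) with at least 4 markers, 0.681 and 0.481 with a stromal gate under 20, 0.532 (cKO) with a macrophage gate at 40, 0.551 (WT) after thinning and 0.563 (cKO) without barcodes of mixed type. With at least 2 markers, Hist1h1b was 1.05 (WT) and 1.19 (cKO), and Cd74 was 1.10 (WT).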
